A study of Mus musculus with 4 samples.

Results

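The Ras to ERK kinase cascade was followed through 7 of its genes, *Grb2*, *Sos1*, *Sos2*, *Braf*, *Map2k1*, *Map2k2* and *Mapk3*, on 4 single-colour Agilent arrays of mouse cells. The members were taken as every probe on the array design that carries one of these 7 gene names, which gave 11 probes. These are 7 of the 31829 gene names on the array. The members were then divided by whether the study's list of mouse transcripts predicted to be bound by miR-195 holds them. It holds *Mapk3* and *Sos2*, and it does not hold the other 5.

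All 4 arrays were hybridised with RNA of lineage-negative fetal liver cells from *Ebf1*-/- mouse embryos, here called *Ebf1*-/- FL HPCs. EBF1 is a transcription factor that starts the B cell programme, and without it fetal progenitors stop before the pro-B cell stage. The cells of 2 arrays had been infected with an empty retrovirus (EMPTY) and those of the other 2 with the same retrovirus carrying *Mir195* (*Mir195*). Both groups were grown with SCF, IL-7 and Flt3-ligand at 10 ng/mL each, and about 100 ng of RNA was labelled for each array. The vector, per the study's methods, carries a GFP marker, its *Mir195* segment was cloned from the human leukaemia line RS4;11, and the general culture condition uses OP9 stroma cells. The labels give neither the embryos behind a sample nor the share of infected cells. They also do not say whether replicates 1 and 2 were separate cultures, so the p-values measure the spread between these samples, which may be technical. In such bulk RNA, fewer cells of a type and less RNA per cell cannot be told apart.

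The cascade carries signals from growth factor and cytokine receptors, such as the SCF receptor KIT, to the nucleus. GRB2 is an adaptor that brings the exchange factors SOS1 and SOS2 to the receptor, and SOS loads RAS with GTP. RAS then recruits RAF kinases such as BRAF, RAF phosphorylates the kinases MEK1 and MEK2 (*Map2k1* and *Map2k2*), and MEK phosphorylates ERK kinases such as ERK1 (*Mapk3*). A microRNA guides the silencing complex to mRNAs that pair with its seed, the bases 2 to 8 from its 5′ end, and lowers their translation, their stability, or both. The arrays measure only the mRNA.

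The seed that the *Mir195* virus adds is not particular to miR-195. The mature sequences below, from RefSeq on GRCm38.p6, are shown because every one carries that seed, which is printed in capitals. The mature mouse miR-195a-5p lies on the plus strand at chr11:70235062-70235082, and miR-497a-5p lies beside it at chr11:70234730-70234751 on the same strand.
miR-195a-5p: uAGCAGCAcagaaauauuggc
miR-497a-5p: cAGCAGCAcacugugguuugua
miR-16-5p: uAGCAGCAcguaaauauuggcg
miR-15a-5p: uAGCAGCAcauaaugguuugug
miR-15b-5p: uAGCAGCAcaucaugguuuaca
miR-322-5p: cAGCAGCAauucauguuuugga
The same seed also stands in the entries for miR-195b, miR-6342, miR-6353 and miR-6419. The level of the miRNA itself was not analysed here.

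Each member probe is 60 bases long, and the values below come from those 60 bases alone. For *Mapk3*, the member with the lowest log2 fold changes between the viruses, the sequence of the probe A_55_P2121662 is shown. Of the prediction programs, miRanda alone lists *Mapk3* as a target. For *Map2k2* both probes are shown, since 1 of them holds letters that could pair with the seed.
Mapk3 A_55_P2121662: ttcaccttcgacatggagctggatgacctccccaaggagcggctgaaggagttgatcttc
Map2k2 A_51_P439626: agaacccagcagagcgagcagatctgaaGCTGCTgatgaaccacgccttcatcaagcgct
Map2k2 A_55_P2152292: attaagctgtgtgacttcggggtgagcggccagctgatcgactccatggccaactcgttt
The capitals mark GCTGCT, the reverse complement of seed bases 2 to 7. It occurred in 1 of the 11 member probes and in 2.09% of the 39429 probes of the array. The longer TGCTGCT, which contains GCTGCT and is the reverse complement of bases 2 to 8, occurred in none of the member probes and in 0.804% of all probes. On the other strand neither was found in a member probe. No other probe of the array shared a sequence or a transcript accession with a member probe, and the accessions of all 7 members were found in RefSeq.

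The EMPTY arrays were brighter than the *Mir195* arrays. The 75th percentile of the signal was 1127 and 1030 with EMPTY and 902 and 922 with *Mir195*. The median spot was 17.4 and 16.1 times the local background with EMPTY and 14.2 and 14.5 times with *Mir195*. Each array was scaled to its 75th percentile, and the part of brightness in the member values was not tested. Between 23658 and 24672 probes were well above background on an array, and 23723 probes were tested. All 4 arrays lay on 1 slide, EMPTY in the first positions and *Mir195* in the last, so position and virus cannot be told apart. The most alike arrays were not replicates. EMPTY replicate 2 and *Mir195* replicate 1 differed by a median of 0.10 (log2) per tested probe, against 0.15 between the EMPTY replicates and 0.19 between the *Mir195* replicates. *Mir195* replicate 2 stood farthest from the others, at 0.19 to 0.23. Of the 9 early B lineage and progenitor genes on the array, 7 were well above background on all 4 arrays and 1 on none. The probe of *Ebf1* lay between 1.85 and 2.03 on all 4 arrays, in log2 signal relative to the 75th percentile. The sources used here do not say whether this probe lies in the disrupted part, so it checks nothing about the genotype.

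Stroma genes were high on 1 array. The summed level of the OP9 stroma list, in units of the 75th percentile, came to 9.79 and 10.7 with EMPTY and to 9.42 and 17.3 with *Mir195*, highest on *Mir195* replicate 2. That of the early B lineage and progenitor list came to 44.5 and 42.2 with EMPTY and to 44.9 and 52.8 with *Mir195*, and 7 of its 8 tested genes were higher by mean. Of the 11 stroma genes 6 were well above background on all arrays and *Dcn*, *Lum*, *Pdgfra* and *Postn* on none, and the 6 that were tested were all higher by mean with *Mir195*. The 8 T and NK cell genes were all lower by mean, with summed levels of 45.6 and 53.2 with EMPTY and 46.9 and 44.4 with *Mir195*. Of the 8 myeloid genes tested 6 were higher by mean, with summed levels of 13.4 and 15.6 with EMPTY and 15.7 and 15.7 with *Mir195*. *S100a8* and *S100a9* were above background on no array. The summed erythroid level was 2.57 and 3.53 against 3.48 and 1.84, with 3 of its 7 genes above background on no array. The summed mast cell level was 0.247 and 0.309 against 0.212 and 0.160, with 5 of 6 genes on none. No gene of these lists was called, and their part in the member values was not tested.

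No member of the cascade passed the test between the viruses. All 11 probes were well above background on all 4 arrays and all were tested, and 0 passed an adjusted p of 0.05 in limma's moderated test, where 0% of all tested probes passed. By mean, 7 probes were lower and 4 higher with *Mir195*. On both *Mir195* arrays 3 probes were lower than on both EMPTY arrays, 2 of *Mapk3* and 1 of *Grb2*, against 14.4% of all tested probes. 1 probe, of *Braf*, was higher on both, against 23.4% of all tested probes. The lowest unadjusted p over the members was 0.245, so that 0 were under 0.05, against 1979 of the 23723 tested probes, and the lowest adjusted p of any probe on the array was 0.101. The median log2 fold change of the 11 probes was -0.037 and that of all tested probes 0.013, with a median size of 0.12. For 7 of the 11 probes the difference was smaller than its own standard error. For a single value, the exact two-sided permutation test over 2 arrays a virus has 0.333 as its smallest p.

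**Figure D1:**
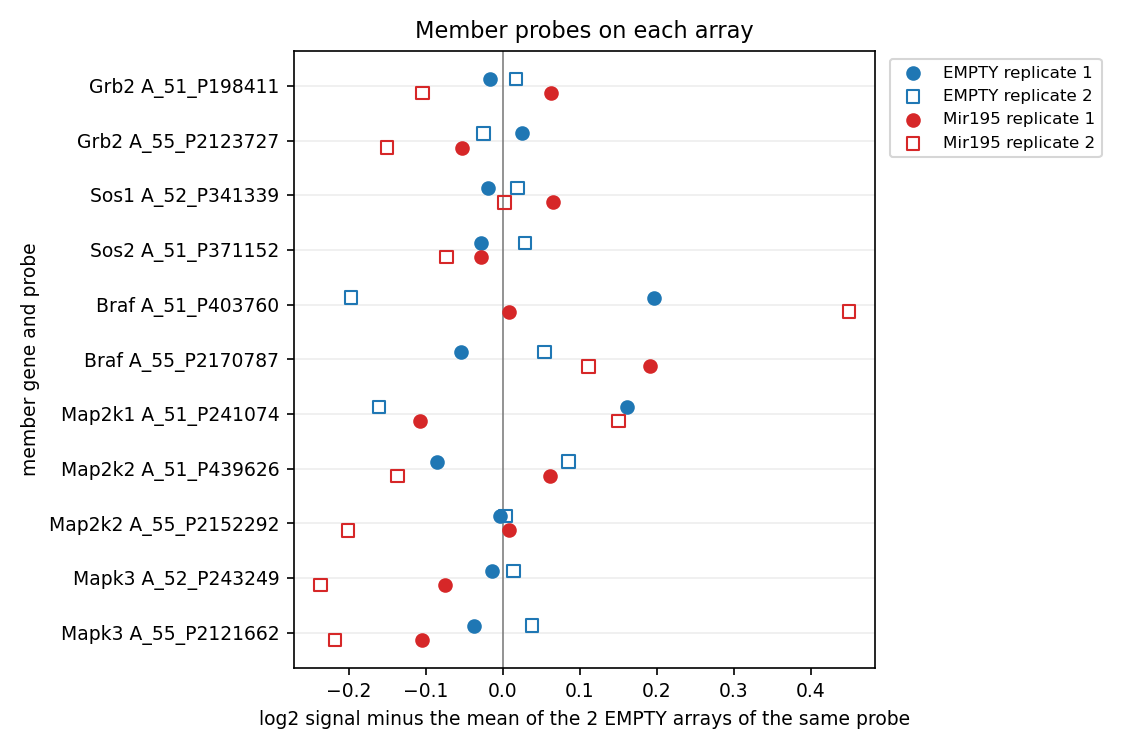
Signal of each member probe on each array, as the log2 signal minus the mean of the 2 EMPTY arrays for that probe (horizontal axis), with 1 row per probe. Filled circles are replicate 1 and open squares replicate 2, in blue for EMPTY and red for Mir195. Both red points lie left of both blue points in 3 rows (2 of Mapk3 and 1 of Grb2) and right of both in 1 row (Braf).

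*Grb2*, on chromosome 11 (GRCm38.p6, 115644045 to 115708597), the adaptor at the head of the cascade, has 2 probes. All levels from here on are log2 signal relative to the array's 75th percentile, and levels of different probes are not compared, since each probe has its own brightness. Probe A_51_P198411 read 3.76 and 3.80 with EMPTY and 3.84 and 3.68 with *Mir195*. The *Mir195* arrays lay on both sides of the EMPTY arrays. On the log2 scale the change was -0.020 (standard error, SE, of 0.13, limma adjusted p = 0.985). Probe A_55_P2123727 read 0.28 and 0.23 with EMPTY and 0.21 and 0.11 with *Mir195*. Here both *Mir195* arrays were lower, although the gap between the nearest arrays was smaller than the gap between the *Mir195* replicates. On the log2 scale the change was -0.10 (SE 0.12, limma adjusted p = 0.902).

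*Sos1*, on chromosome 17 (80393752 to 80480453), and *Sos2*, on chromosome 12 (69583761 to 69681852), encode the exchange factors that GRB2 carries to the membrane. *Sos1* has 1 probe, A_52_P341339, which read -4.46 and -4.42 with EMPTY and -4.37 and -4.44 with *Mir195*. The groups overlapped, and the log2 fold change was 0.034 (SE 0.12, limma adjusted p = 0.970). This was the dimmest member probe, with spots 2.59 to 2.88 times the local background, where the brightest member probe reached 374 times. *Sos2*, which both TargetScan and miRanda list as a target, has the probe A_51_P371152, which read 0.019 and 0.076 with EMPTY and 0.019 and -0.025 with *Mir195*. *Mir195* replicate 2 was the lowest of the 4, while *Mir195* replicate 1 read as EMPTY replicate 1 did, and the log2 fold change was -0.050 (SE 0.12, limma adjusted p = 0.954).

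The 2 exchange factors can be set against each other as changes from each probe's own EMPTY mean. *Sos2* minus *Sos1* came to -0.0093 and 0.0093 with EMPTY and to -0.093 and -0.075 with *Mir195*, which differ by -0.084. Both *Mir195* arrays were lower, by more than either replicate gap. The difference depended on how the dim *Sos1* probe was processed, and lay between -0.28 with the normexp background correction and 0.0089 with quantile normalization. No test of this difference was made.

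*Braf*, on chromosome 6 (39603231 to 39725658), is the RAF kinase on this list. It was the member with the largest mean log2 fold change and, on 1 probe, the widest gaps between replicates. Probe A_51_P403760 read -0.027 and -0.42 with EMPTY and -0.22 and 0.23 with *Mir195*. The EMPTY replicates differed by 0.39 and the *Mir195* replicates by 0.44, and the groups overlapped. The log2 fold change of 0.23 was about the size of its standard error of 0.22 (adjusted p = 0.883 from limma), and leaving out any array moved it, to 0.0078 without *Mir195* replicate 2, 0.032 without EMPTY replicate 2, 0.43 without EMPTY replicate 1 and 0.45 without *Mir195* replicate 1. Probe A_55_P2170787 read -2.92 and -2.81 with EMPTY and -2.67 and -2.75 with *Mir195*. Both *Mir195* arrays were higher, with a log2 change of 0.15 (SE 0.12, limma adjusted p = 0.847). After scaling each array to its median this became 0.053. Before any scaling the probe's intensity was 149 and 147 with EMPTY and 141 and 137 with *Mir195*. The *Mir195* arrays were thus the higher ones only after scaling.

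The MEK kinases showed no common direction. *Map2k1*, on chromosome 9 (64185769 to 64253605), has the probe A_51_P241074, which read 2.68 and 2.36 with EMPTY and 2.42 and 2.67 with *Mir195*. Each group held 1 high and 1 low array, and the log2 fold change was 0.021 (SE 0.18, limma adjusted p = 0.988). *Map2k2*, on chromosome 10 (81105913 to 81124697), has 2 probes, both printed above. Probe A_51_P439626, the one with GCTGCT, read 2.63 and 2.80 with EMPTY and 2.77 and 2.58 with *Mir195*, a log2 change of -0.037 (SE 0.14, limma adjusted p = 0.972). Probe A_55_P2152292 read 2.38 and 2.38 with EMPTY and 2.39 and 2.18 with *Mir195*, a log2 change of -0.096 (SE 0.13, limma adjusted p = 0.916). On both probes *Mir195* replicate 2 was the lowest array and *Mir195* replicate 1 lay within or above the EMPTY arrays. Without *Mir195* replicate 2 the values were 0.062 and 0.0079.

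*Map2k1* minus *Map2k2*, as changes from the EMPTY mean, came to 0.21 and -0.21 with EMPTY and to -0.14 and 0.32 with *Mir195*. The difference of 0.088 was below the standard deviation of either pair of replicates (0.29 and 0.33), so a difference between the MEK genes was not detectable with these replicates.

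*Mapk3*, on chromosome 7 (126759626 to 126765816), encodes ERK1, the last kinase of the cascade, and was the only member on which both probes were lower on both *Mir195* arrays. Probe A_52_P243249 read 2.41 and 2.44 with EMPTY and 2.35 and 2.19 with *Mir195*. Probe A_55_P2121662, printed above, read 1.18 and 1.26 with EMPTY and 1.11 and 1.002 with *Mir195*. On both probes *Mir195* replicate 2 was the lowest array and *Mir195* replicate 1 lay between it and the EMPTY arrays. The log2 fold changes were -0.16 (SE 0.12, limma adjusted p = 0.846) and -0.16 (SE 0.12, limma adjusted p = 0.836). As ratios these were 0.898, with a 95% interval of 0.716 to 1.13, and 0.894, with an interval of 0.718 to 1.11. The intervals hold both no change and a fall to 0.716 of the EMPTY signal. The values did not change sign in any of the 15 alternative settings. They ran from -0.25 to -0.075 on A_52_P243249 and from -0.26 to -0.10 on A_55_P2121662, smallest in size without *Mir195* replicate 2. The settings of dim filter, variance, block and t-test keep the estimate itself, so only the rest could change a sign. The 2 probes read the same RNA samples and are not independent replicates of the condition. Beyond the prediction, the study reported that *Mir195* lowered the activity of a *Mapk3* luciferase reporter. It also reported lower *Mapk3* and *Sos2* mRNA by qPCR, and lower *Mapk3* in its own analysis of the arrays.

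**Figure D2:**
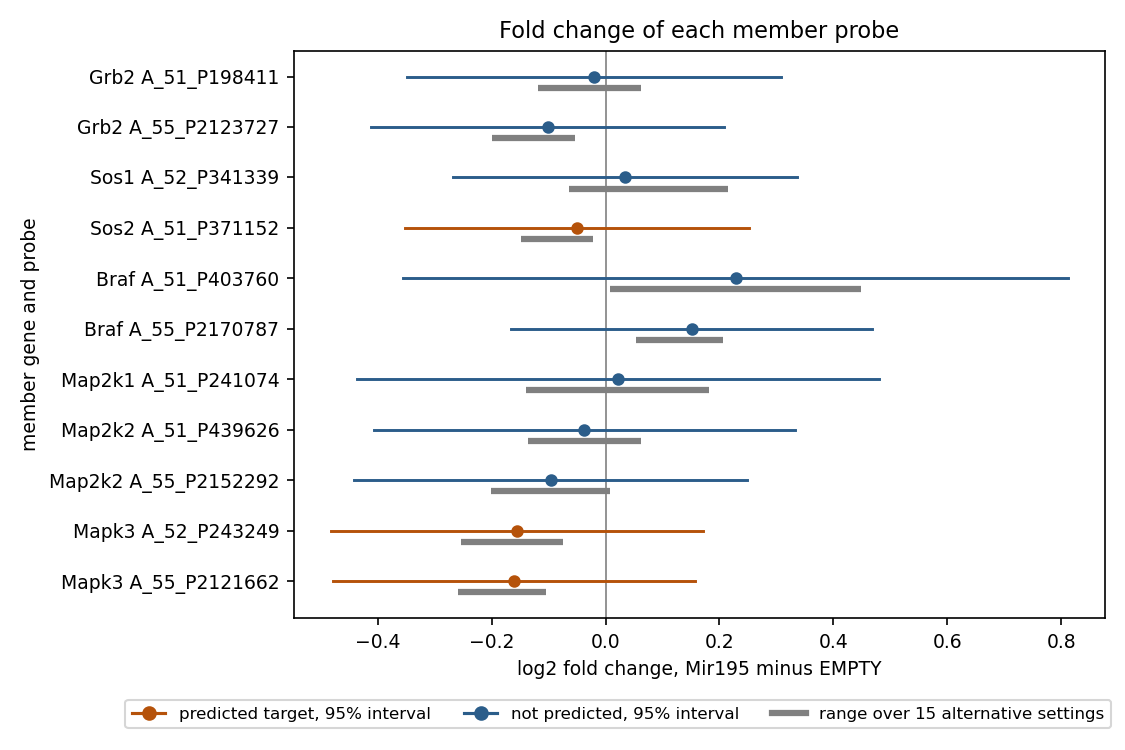
Log2 fold change of each member probe, Mir195 minus EMPTY (point), with limma's 95% interval (thin line), in orange for predicted targets and blue for the rest. Grey bars give the lowest and highest value over the 15 alternative settings. Every interval includes 0, and the bounds over all probes run from -0.48 to 0.81.

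The alternatives moved the smaller values across 0. Those of dim filter, variance, block and t-test keep every member estimate, so only the rest could change a direction. Over the 15 settings 6 member probes kept their direction (both of *Mapk3*, both of *Braf*, that of *Sos2* and 1 of *Grb2*) and 5 changed it in at least 1 setting. In none of them was a member called, and the lowest adjusted p of a member in any setting was 0.352 from limma. Scaling to the median lowered all tested probes by a median of 0.098, and the members moved down with it.

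**Figure D3:**
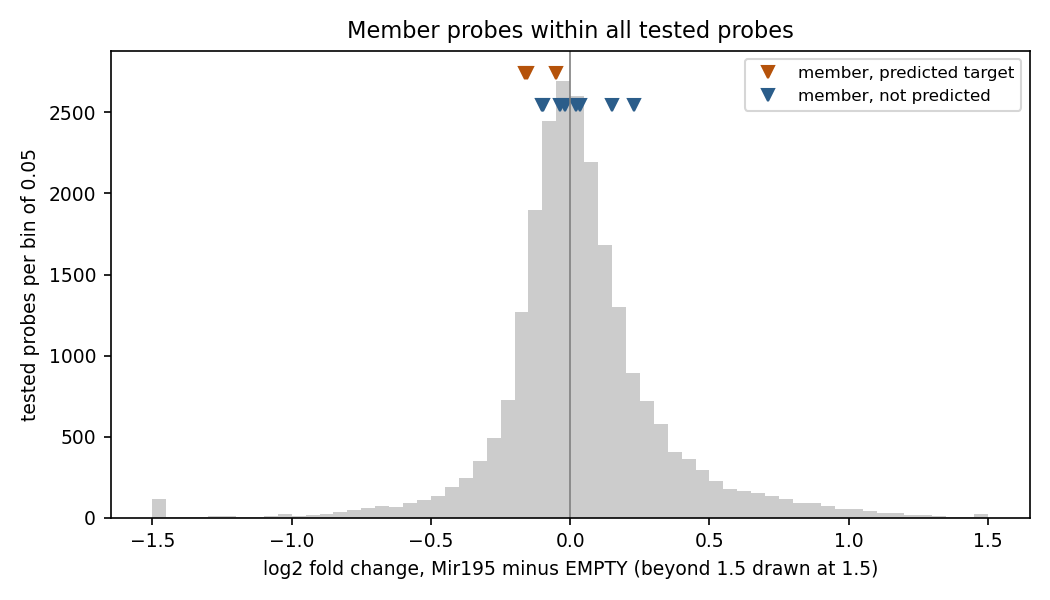
Histogram of the log2 fold change, Mir195 minus EMPTY, of the 23723 tested probes in bins of 0.05 (grey; values beyond 1.5 are drawn at 1.5). Triangles mark the 11 member probes, in orange for predicted targets and blue for the rest. The members lie between -0.16 and 0.23, in the bulk of the distribution.

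The question that the prediction list puts to these data is whether predicted members were lower than the others. Averaged over its probes, *Mapk3* lay at -0.16 and *Sos2* at -0.050, a median of -0.10 over the 2 predicted genes. Of the 5 that were not predicted, *Grb2* lay at -0.061, *Map2k2* at -0.067, *Map2k1* at 0.021, *Sos1* at 0.034 and *Braf* at 0.19, a median of 0.021. *Mapk3* was thus below all the members that were not predicted, while *Sos2* was above *Grb2* and *Map2k2*. The difference between the medians was -0.13. Array by array, the mean of the predicted genes minus the mean of the others was -0.062 and 0.062 with EMPTY and -0.078 and -0.18 with *Mir195*. The standard deviation of these values between replicates was 0.079, and *Mir195* replicate 1 differed from EMPTY replicate 1 by less. It is the spread of a difference of means, not of the difference between the medians. The difference between the medians stayed below 0 in every setting run. It lay between -0.15 without *Mir195* replicate 1 and -0.055 without EMPTY replicate 2 or after quantile normalization. Median scaling, the other percentile and the settings of dim filter, variance, block and t-test could not move it and left it at -0.13. With 7 genes that are not replicates, and 2 arrays a group, no test was made.

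**Figure D4:**
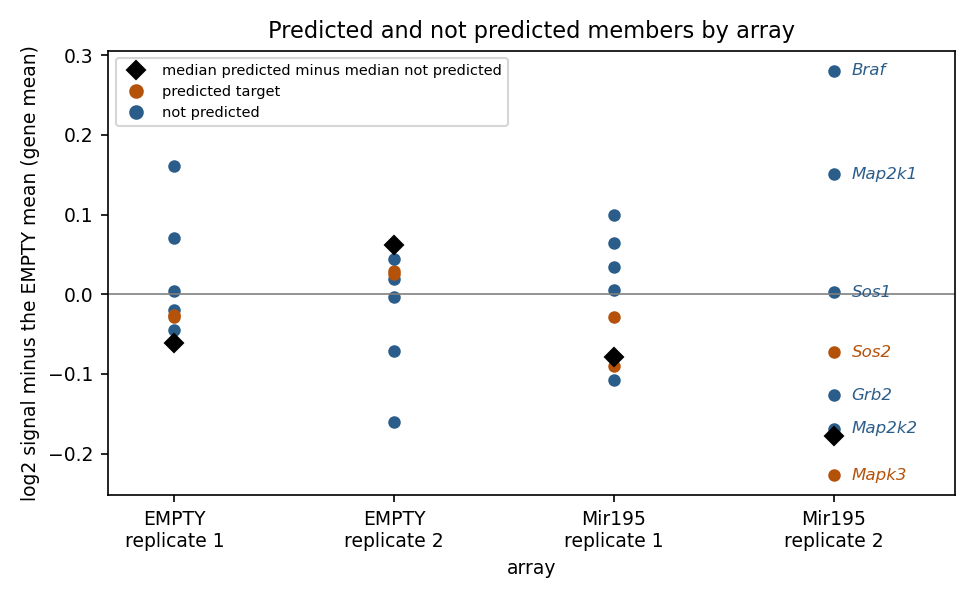
Each member gene on each of the 4 arrays, as its mean log2 signal over probes minus its EMPTY mean, in orange for predicted targets and blue for the rest. Black diamonds give, for each array, the mean of the predicted genes minus the mean of the others, although the legend says median. They were -0.062, 0.062, -0.078 and -0.18. The spread among the genes was widest on Mir195 replicate 2.

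Around the members, 52 of 54 other genes of the Ras to ERK pathway had a tested probe (each gene by its brightest one), and none of them was called by limma either (lowest adjusted p = 0.530). *Rasgrf1* and *Rasal3* had none. By mean, 25 were higher and 27 lower, with a median of -0.012, and 2 had an unadjusted p under 0.05. On both *Mir195* arrays 16 were below both EMPTY arrays (30.8%, against 14.4% of all tested probes) and 11 above (21.2%, against 23.4%). The shares over all tested probes were not limited to the brightest probe of a gene, so they are not matched for brightness. Of the 5 that the mouse list predicts as targets (*Rapgef1*, *Crk*, *Nf1*, *Shoc2* and *Mknk1*), 2 were higher and 3 lower by mean, with a median of -0.076, and the median of the other 47 was -0.0079.

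The transcripts of the RAS GTPases were mostly lower by mean, 5 of 6, with a median of -0.20, and none was called (limma, lowest adjusted p = 0.759). Over the alternatives 4 to 6 of them were lower, with medians of -0.30 after median scaling to -0.080 with normexp. *Hras*, whose 2 tested probes had log2 fold changes of -0.45 and -0.24, read 1.96 and 2.10 with EMPTY on the brighter one. With *Mir195* that probe read 1.91 and 1.67. *Rras*, a RAS relative known for integrin signalling, read 0.81 and 0.80 with EMPTY and 0.68 and 0.41 with *Mir195*. In both, *Mir195* replicate 2 was the lowest array. Their log2 changes of -0.24 and -0.26 were both -0.12 without that array, and -0.36 and -0.39 without *Mir195* replicate 1. *Mras* had the largest value of the list, -1.01, but it came from that array alone: the probe read -4.91, -4.63 and -4.79 on the other 3 arrays and -6.78 on *Mir195* replicate 2, where it was not well above background.

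*Araf*, a further RAF kinase beside *Braf*, lay at 0.075 by its brightest probe, and its 3 tested probes ran from -0.027 to 0.15. Exchange factors other than *Sos1* and *Sos2* were lower in 5 of 6 genes (median -0.081), scaffolds and regulators in 5 of 8 (median -0.13), adaptors in 5 of 11 (median 0.028), RAS GTPase activating proteins in 3 of 9 (median 0.034) and the kinases and factors that ERK acts on in 4 of 10 (median 0.017).

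Among genes whose groups did not overlap, the 4 highest values were those of *Gab1*, *Rasgrp3*, *Rps6ka2* and *Rasal2*. *Gab1*, a docking adaptor for SHP2 and PI3K, read -6.30 and -6.48 with EMPTY and -5.92 and -5.77 with *Mir195*, a log2 change of 0.55 (SE 0.14, limma adjusted p = 0.530). Its spots were 1.94 to 2.15 times the local background, so this is a dim probe, and in the authors' table the value was 0.33. *Rasgrp3*, an exchange factor of B cells, read -3.43 and -3.25 with EMPTY and -2.95 and -2.92 with *Mir195*, a log2 change of 0.41 (SE 0.13, limma adjusted p = 0.540). In the authors' table it was 0.26. *Rps6ka2*, an ERK-activated ribosomal S6 kinase, lay at 0.41, but at 0.19 without EMPTY replicate 1 and 0.63 without EMPTY replicate 2. *Rasal2*, a GTPase activating protein, lay at 0.29, and at 0.19 after median scaling. Both of these probes were dim too, with spots 2.10 to 2.53 and 2.31 to 2.67 times the local background.

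The 4 lowest were *Pea15a*, *Lamtor3*, *Lat* and *Rasa3*. *Pea15a*, whose protein keeps ERK in the cytoplasm, read -1.47 and -1.37 with EMPTY and -1.85 and -1.66 with *Mir195*, a log2 change of -0.34 (SE 0.13, limma adjusted p = 0.611). *Lamtor3*, a scaffold for MEK1 and ERK1 on late endosomes, read 4.30 and 4.09 with EMPTY and 3.98 and 3.80 with *Mir195*, at -0.30, and its 3 probes ran from -0.39 to -0.30. Without EMPTY replicate 1 it lay at -0.20. *Lat*, an adaptor of T cell receptor signalling, lay at -0.29, and *Rasa3* at -0.26. *Lat* was lower, as were the 8 T and NK cell genes, whose median was -0.29; their part in it was not tested.

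**Figure D5:**
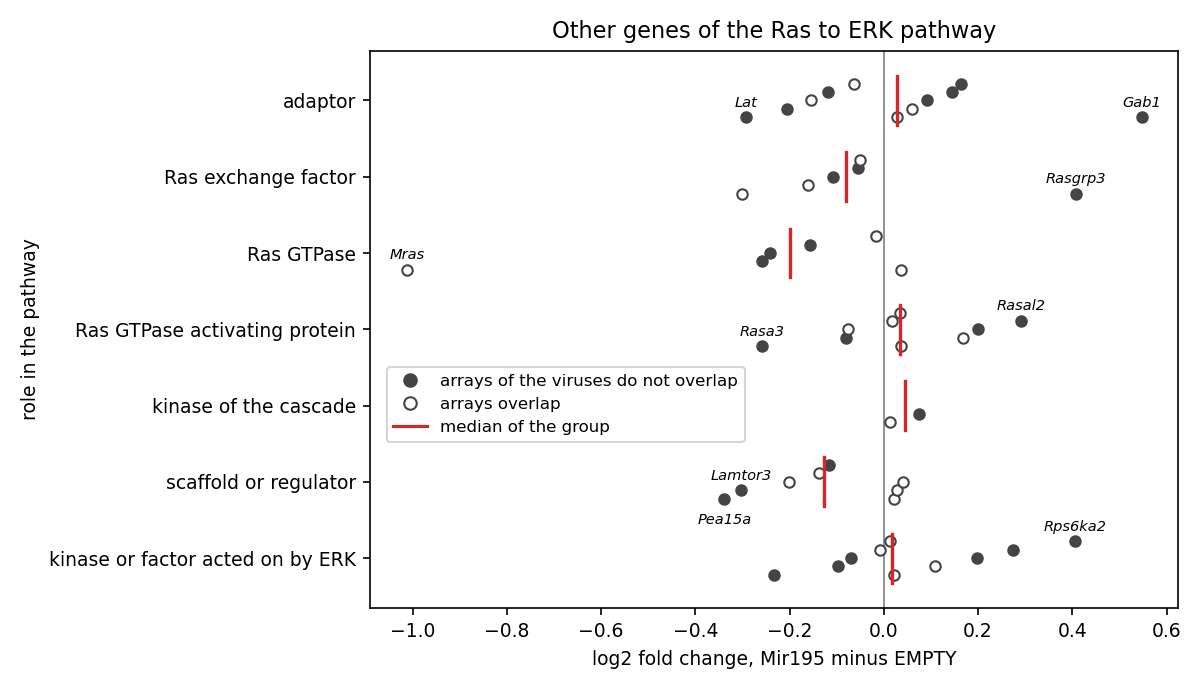
Log2 fold change, Mir195 minus EMPTY, of the 52 other genes of the pathway, 1 point per gene, grouped by role. Filled points are genes whose Mir195 arrays lie both above or both below the EMPTY arrays, open points are genes whose arrays overlap, and red lines are group medians. Gab1 stands at 0.55 and Mras at -1.01, and the Ras GTPases have the lowest median, at -0.20.

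Of the other genes, those most like *Mapk3* across the 4 arrays were *Mknk2* (Pearson r = 0.995 with the mean of the *Mapk3* probes), *Hras* (r = 0.989) and *Rras* (r = 0.973). At least these correlations were reached by 153, 295 and 712 of the 23723 tested probes (0.645%, 1.24% and 3.001%). The genes were picked for the highest correlations among the 52, over only 4 arrays, so these shares are not a test of likeness. The points share 1 slide and the same RNA samples. *Mknk2*, a kinase that ERK activates and that phosphorylates the cap-binding factor eIF4E, read 5.04 and 5.08 with EMPTY and 5.01 and 4.91 with *Mir195*, a log2 change of -0.097.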

How the data were processed

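Gene expression was measured on 4 single-colour Agilent 4x44K mouse arrays, 2 per virus, grouped by their titles. Intensity values are the deposited processed signals of Agilent Feature Extraction 11.5.1.1 (already background-subtracted), per the file headers. The deposited log2 table holds the authors' values, stated in the methods to be scaled to the 75th percentile; its columns have medians of -4.45 to -4.29, correlated with the values used here at 0.998, and served as an alternative. Spots of a probe were averaged and log2 intensity minus the array's 75th percentile was tested with limma 3.58.1 in R 4.3.3 (lmFit and eBayes, two-sided, Benjamini-Hochberg over the 23723 probes that both arrays of 1 virus or the other measured well above background, without outlier spots). The number of arrays limits the precision. The scripts were tested on simulated data.

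Every probe of every member was named. Of the other pathway genes, those named were any called gene, the 4 highest and 4 lowest without overlap, and the 3 most correlated with *Mapk3*; *Araf* and *Mras* were chosen after their values were seen. The 5 predicted genes among them and the 2 without a tested probe were named for that alone. Members and lists were chosen with earlier results of these data known. Alternatives were normexp with an offset of 50, quantile and median scaling, a percentile over probes detected on all arrays, the authors' table, no and strict dim filters, a trended robust variance, the replicate block, the methods' t-test and leaving out each array. The crossed replicate block was added after seeing the data. The same-numbered deviations correlated at -0.10, so no shared effect of a replicate number was seen. With 2 arrays a virus this cannot settle whether the numbers pair the samples. The prediction list comes from the study's supplement and the gene coordinates from RefSeq. The values of some pathway genes are not reported here.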

Additional observations from a re-analysis of the deposited data

How the results depend on the processing

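Under the 15 alternatives no member probe was called and the median of the predicted members stayed below that of the others. The dim filter, variance, block and t-test alternatives keep every member estimate, and a common scaling of an array cancels in that difference. Of the single member values, 13 reversed, all within 0.14 of 0, and the cause was not tested. With normexp, *Map2k1* lay at -0.0045 and *Map2k2* A_51_P439626 at 0.0064. After median scaling *Sos1* lay at -0.064 and *Map2k1* at -0.076, after quantile normalization *Sos1* at -0.064, in the authors' table *Sos1* at -0.045, and with the percentile over detected probes *Grb2* A_51_P198411 at 0.00070. Leaving out 1 array at a time, *Grb2* A_51_P198411 ran from -0.10 to 0.063, *Map2k1* from -0.14 to 0.18, *Map2k2* A_51_P439626 from -0.14 to 0.062 and *Map2k2* A_55_P2152292 from -0.20 to 0.0079. The median of the other 52 genes, -0.012, was 0.011 with normexp, -0.045 after quantile normalization, -0.11 after median scaling, 0.0094 with the percentile over detected probes and -0.047 in the authors' table, and between -0.044 and 0.0044 with 1 array left out.

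Calls over all tested probes, 0 in limma, were 3 after median scaling, and between 0 and 900 with 1 array left out. The 900 came without *Mir195* replicate 1, which leaves *Mir195* replicate 2 alone, assumed to vary like the EMPTY pair. They included *Mras* (adjusted p = 0.0055), the only other pathway gene called in any alternative (0 or 1 with 1 array left out), and no member. The replicate block gave 5 calls over all probes, and 0 of the members or of the other pathway genes. The crossed pairing gave 0. The methods' t-test was run on the differences between same-numbered arrays, and so assumes that the replicate numbers pair the samples. It put 0 member probes, 2 other pathway genes and 1133 of all probes under the usual threshold before adjustment, and 0 after Benjamini-Hochberg. The spread of 2 arrays per virus and the dim signals of *Sos1*, *Gab1*, *Rps6ka2*, *Rasal2* and *Mras* limit what could be detected.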
